A study of Mus musculus with 7 samples.

Results

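The genes described here encode the proteins of the cytosolic ribosome. They were taken as protein-coding genes whose symbol starts with Rpl or Rps followed by a digit, or is Rplp0, Rplp1, Rplp2, Rpsa or Fau, without the pseudogene symbols that carry -ps and without the Rps6k kinases and Rps19bp genes. The count table held 85 such genes among 25467, of which 51 belong to the large (60S) and 34 to the small (40S) subunit. Rpl10l is annotated in mouse and was not analysed here. Of the 85, 83 had enough counts to be tested (49 large, 34 small). Rpl3l, with 1 to 14 counts a library, and Rpl39l, with 0 to 3, did not, which leaves 2 paralogs known from muscle and testis without a fold change.

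RNA was measured by sequencing in mouse brain, labelled mPFC in the sample titles (the medial prefrontal cortex, the midline part of the frontal cortex). The samples were 4 mice treated with rhTSP1, recombinant human thrombospondin-1 (TSP1 below), a secreted matrix protein released by astrocytes that promotes synapse formation, and 3 mice given PBS, the saline control. The sources used here do not give strain, genotype, sex, age, dose, route or the time between treatment and sampling. All libraries started from 1.3 µg of total RNA.

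A ribosome is built from a large and a small subunit, each made of ribosomal RNA and a fixed set of proteins of which a ribosome generally holds a single copy (the stalk proteins P1 and P2 are the exception). The mRNAs of these proteins are short and abundant, and most begin with a run of pyrimidines at their 5′ end, the 5′ terminal oligopyrimidine (TOP) motif, through which mTORC1 and the RNA-binding protein Larp1 control their translation together. In neurons ribosomes also sit in dendrites and axons, where local protein synthesis takes part in synaptic plasticity.

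Sequence around the annotated transcription start shows what these genes share. RefSeq start windows on GRCm38.p6 were matched for 65 of the 85 members, and 30 bases are printed for 8 of them, 15 on each side of the start position. The windows belong to 6 members of small p with long and short runs, and to 2 members with a difference close to 0. Capitals mark the longest uninterrupted run of C or T.
Rps21, chr2:180257364-180257393, plus strand: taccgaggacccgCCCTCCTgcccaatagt
Rps27, chr3:90213634-90213663, minus strand: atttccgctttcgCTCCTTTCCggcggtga
Fau, chr19:6057932-6057961, plus strand: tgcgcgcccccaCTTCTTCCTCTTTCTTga
Rpl38, chr11:114668565-114668594, plus strand: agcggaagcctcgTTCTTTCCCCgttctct
Rpl18, chr7:45718056-45718085, plus strand: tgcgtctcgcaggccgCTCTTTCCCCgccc
Rps2, chr17:24720048-24720077, plus strand: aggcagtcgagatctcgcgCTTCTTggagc
Rps6, chr4:86857353-86857382, minus strand: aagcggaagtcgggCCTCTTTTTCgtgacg
Rpl26, chr11:68901551-68901580, plus strand: CTCgcggcaacttacagaaccggaagtcgc

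A run of at least 8 C or T within these 30 bases was present in 28 of 65 members (43.1%) and in 13.8% of 26960 other genes. Fau, with a run of 16, was among the members with the smallest p, and Rps6, with a run of 10, had a difference close to 0. The median log2 fold change was -0.18 in the tested members that hold such a run and -0.19 in the tested members that do not. The start annotated by RefSeq may lie some bases from the start used in this tissue, and a run found here is a description of letters. In the whole window of 300 bases (250 before and 50 after the start, either strand), CCGGAAG, a core recognised by ETS-family factors, was found in 26 of 65 members (40.0%) against 9.86% of other genes. AAGATGGC, the core bound by YY1, was found in 7 members (10.8% against 3.17%), and TATAAA, the TATA box, also in 7 (10.8% against 15.7%). The 85 members lie on 20 chromosomes, with 14 on chromosome 7, which holds the most, and 4 on the X.

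The libraries held 15090336 to 20755167 counts. All 12 excitatory neuron markers and all 12 interneuron markers of the lists used passed the low-count filter. TSP1 replicate 4 stood apart in markers of a neighbouring tissue: on a log2 scale centred on the 7-library mean, its 13 tested striatal neuron markers averaged 1.28, against -0.26 to -0.13 in the other 6, and its myelin markers averaged 0.82. TSP1 replicate 1 and PBS replicate 1 stood apart in the ribosomal protein genes themselves and in short transcripts in general, as described below. Values of the members as a class are given with and without these 3 libraries, and fold changes that moved by over 1.5 times or turned in sign without TSP1 replicate 1 are given again without it. The samples' descriptions number the libraries 1 to 4 (TSP1) and 8, 11 and 12 (PBS), so library number and treatment cannot be told apart. In bulk tissue, fewer cells of a type and less RNA per cell cannot be told apart either.

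As a class, ribosomal protein mRNAs were slightly lower in the TSP1 libraries, by a median of 0.19 log2 units, but no single gene passed the adjusted threshold in the main test. Of 83 tested members, 81 had a fitted difference below 0, whereas 8420 of all 17211 tested genes (48.9%) did. The exceptions were Rpl24 and Rps27rt, both described below. The median log2 fold change of TSP1 over PBS was -0.19 over the members and 0.00 over all tested genes, with a range over members from -0.49 (Rps29) to 0.15 (Rpl24). At an unadjusted p under 0.05 in edgeR's quasi-likelihood test, 37 members (44.6%) were lower and 0 were higher, beside 5.44% and 4.21% of all tested genes. In 25 members (30.1%) every TSP1 library lay below every PBS library, beside 5.26% of all genes, and in 0 members the reverse held (4.83% of all genes). The members share their libraries, so these counts are not independent of each other.

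After Benjamini-Hochberg adjustment over all 17211 genes, edgeR's quasi-likelihood test called 0 members and 0 genes (0.0%) at 0.05, and the smallest adjusted p among members was 0.112, for Rps21. DESeq2 called 4 members, each lower with TSP1, beside 0.459% of genes lower and 0.144% higher. The edgeR exact test called the same 4, Rps21, Rps29, Rps27 and Fau, beside 0.465% lower and 0.139% higher. With limma-voom 0 genes were called in either direction (0.0%). In the quasi-likelihood fit without a low-count filter, Rps21 and Rps29 had adjusted p of 0.0372 and 0.0384, and without PBS replicate 3 Rps29 had 0.0475.

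**Figure D1:**
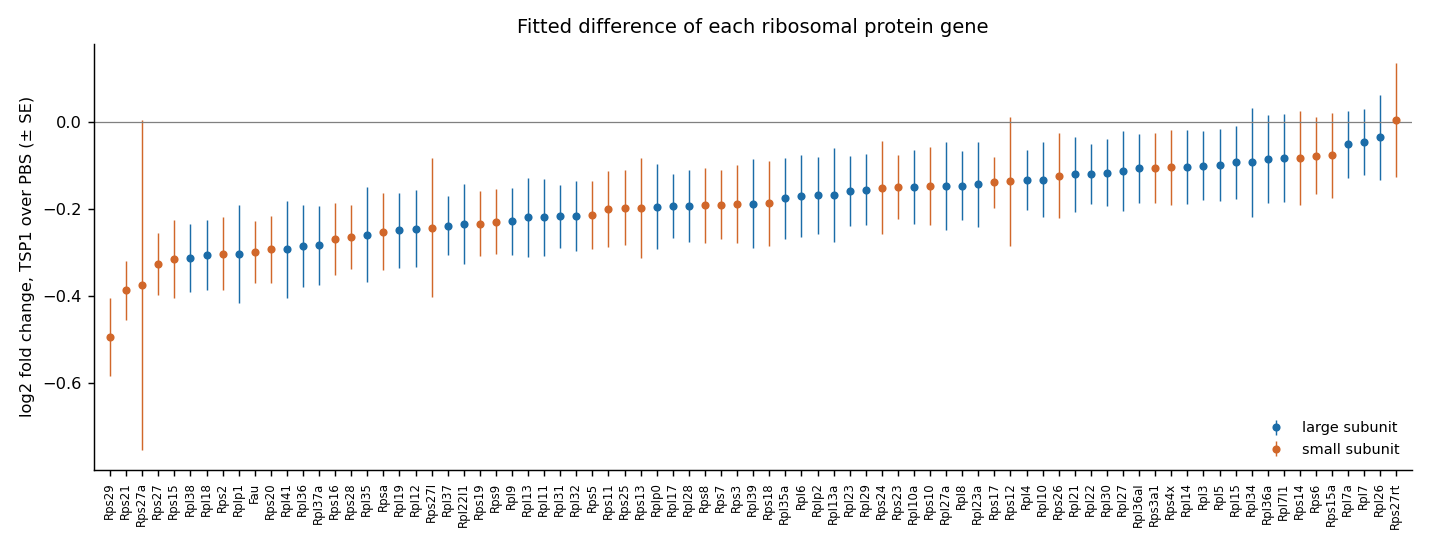
Fitted log2 fold change of TSP1 over PBS (vertical axis) for each tested ribosomal protein gene on the horizontal axis, in rising order, with bars of 1 standard error. Large subunit genes (blue) and small subunit genes (orange) are mixed along the order, from -0.49 at Rps29 to 0.00 at Rps27rt. Rpl24, with 4 to 18 counts a library, and 1 other member are left out.

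The difference did not spread evenly over the 7 libraries. On a scale of log2 CPM (counts scaled to library size) centred for each gene on its mean over the 7 libraries, the mean over the 83 members was -0.28, -0.06, 0.04 and -0.02 in TSP1 replicates 1 to 4 and 0.18, 0.02 and 0.12 in PBS replicates 1 to 3. The groups overlapped, since TSP1 replicate 3 lay above PBS replicate 2. TSP1 replicate 1 was the lowest library for 75 of the 83 members, and PBS replicate 1 was the highest for 64. Between those extremes the order was mixed: TSP1 replicate 3 lay above PBS replicate 2 in 52 members and TSP1 replicate 4 did so in 42.

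**Figure D2:**
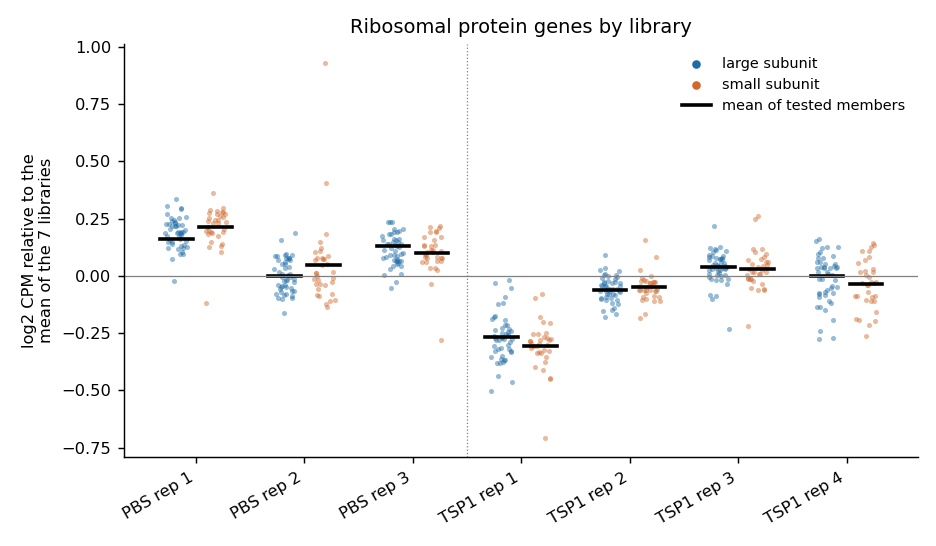
Centred log2 CPM (vertical axis) of the tested ribosomal protein genes in each library (horizontal axis, PBS left of the dotted line, TSP1 right). Each point is a gene, blue for large and orange for small subunit genes, and black bars are means over the subunit's tested genes. Rpl24 is left out of the points. TSP1 replicate 1 sits lowest, at -0.27 (large) and -0.30 (small), and PBS replicate 1 highest, at 0.16 and 0.21.

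The members' median difference was -0.12 without TSP1 replicate 1, with 77 of 83 below 0. At an unadjusted p under 0.05, 29 (34.9%) were then lower, beside 4.77% of all genes. It was -0.13 without PBS replicate 1, with 18 (21.4%) lower, beside 4.87% of all genes. With both left out, a combination chosen after seeing the data, the median was -0.07, 65 of 84 tested members lay below 0 and 15 (17.9%) were lower at an unadjusted p under 0.05, beside 5.13% of all genes. All 15 were among the 37. Without TSP1 replicate 4, the library with striatal and myelin markers, the median was -0.19 and 43 members (52.4%) were lower, beside 5.41% of all genes. Leaving out PBS replicate 3 gave 22 (26.5%), beside 3.7% of all genes. A set of 16 members was lower at an unadjusted p under 0.05 in the full fit and in each of the 7 fits that left out a library, among them Fau, Rpl18, Rpl19, Rpl36, Rpl37, Rpl38, Rps2, Rps15, Rps16, Rps19, Rps20, Rps21, Rps27, Rps28 and Rps29. Of these, 14 (all but Rps16 and Rps19) were also lower with TSP1 replicate 1 and PBS replicate 1 both left out. These fits reuse the same libraries, and the share of all genes that passed every one of them was not counted.

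As a share of all counts in a library, the members took 0.909%, 1.06%, 1.14% and 1.14% in TSP1 replicates 1 to 4 and 1.28%, 1.10% and 1.18% in PBS replicates 1 to 3. The means were 1.06% ± 0.110 (SD, n = 4) and 1.19% ± 0.0917 (SD, n = 3), and the groups overlapped. The difference of -0.12 percentage points was -0.07 without TSP1 replicate 1 and -0.02 without that library and PBS replicate 1. The share of counts on the mitochondrial genome was 4.70% to 5.996% in the TSP1 libraries and 6.24% to 6.58% in the PBS libraries, with no overlap. Outside TSP1 replicate 4, libraries of higher mitochondrial share mostly had a higher members' share. The mitochondrial share was lowest in TSP1 replicate 4 (4.70%), where the members' share was 1.14%. The members' share was lowest in TSP1 replicate 1, whose mitochondrial share of 5.21% was the next lowest. The part of the mitochondrial share in the result was not tested.

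Large and small subunit genes had medians close to each other. Of 49 large subunit genes, 48 lay below 0, with a median of -0.17, 19 lower at an unadjusted p under 0.05 (38.8%) and 12 without overlap of the groups. Of 34 small subunit genes, 33 lay below 0, with a median of -0.20, 18 lower (52.9%) and 13 without overlap. Over all tested genes, 5.44% were lower at that p and 5.26% were lower without overlap of the groups. The medians differed by 0.03 log2 units, and by 0.04 without TSP1 replicate 1, 0.04 without TSP1 replicate 4 and 0.02 without PBS replicate 1, and no test of that difference was made. The mean of the large subunit genes minus that of the small was 0.04, -0.01, 0.01 and 0.04 in TSP1 replicates 1 to 4 and -0.05, -0.05 and 0.03 in PBS replicates 1 to 3, so the groups overlapped. The ratio of large to small subunit counts was 1.498, 1.487, 1.497 and 1.505 with TSP1 and 1.452, 1.458 and 1.490 with PBS, where PBS replicate 3 lay above TSP1 replicate 2.

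The smallest p among the members belonged to Rps21, a small protein of the 40S subunit (chr2:180257377-180258445). Its CPM were 95.7, 86.1 and 90.6 in the PBS libraries and 64.1, 69.4, 74.7 and 69.7 in the TSP1 libraries. No TSP1 library reached the lowest PBS library. The means were 90.8 ± 4.78 (SD, n = 3) and 69.5 ± 4.36 (SD, n = 4), and the log2 fold change was -0.39 ± 0.07 (SE), with an adjusted p of 0.112 in edgeR's quasi-likelihood test, 0.00126 in DESeq2 and 0.00152 in the edgeR exact test. The difference was -0.35 without TSP1 replicate 1, and no near-identical copy of Rps21 was in the table.

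Rps29, a zinc-binding protein of the small subunit's head that is mutated in some families with Diamond-Blackfan anaemia, had the lowest fitted value (chr12:69157722-69159186). Its CPM were 109.4, 112.8 and 89.9 with PBS and 67.5, 83.9, 73.3 and 70.9 with TSP1. Again the groups were apart, with TSP1 replicate 2 closest to PBS replicate 3. The log2 fold change was -0.49 ± 0.09 (SE), with an adjusted p of 0.117 in edgeR's quasi-likelihood test, 0.000906 in DESeq2 and 0.00134 in the exact test.

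Rps27, another zinc-binding small subunit protein, also called metallopanstimulin, stood at 73.2, 70.3 and 68.0 CPM with PBS and 51.4, 60.1, 59.6 and 53.9 with TSP1 (chr3:90212522-90213651). Every PBS library lay above every TSP1 library. The log2 fold change was -0.33 ± 0.07 (SE), with an adjusted p of 0.156 in edgeR's quasi-likelihood test, 0.0309 in DESeq2 and 0.0249 in the exact test.

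Fau encodes a ubiquitin-like protein fused to the small subunit protein eS30, from which it is cleaved (chr19:6057844-6059524). It stood at 150.8, 137.4 and 143.9 CPM with PBS and 103.7, 122.0, 122.5 and 120.2 with TSP1. The groups were apart, and TSP1 replicate 1 lay well below the other 3 TSP1 libraries. The log2 fold change was -0.30 ± 0.07 (SE), with an adjusted p of 0.188 in edgeR's quasi-likelihood test, 0.0368 in DESeq2 and 0.0485 in the exact test. Without TSP1 replicate 1 it was -0.24.

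Among large subunit genes the smallest p belonged to Rpl38, whose loss in the mouse Tail-short mutant alters the body plan (chr11:114668524-114672331). Its CPM were 79.4, 68.8 and 75.8 with PBS and 61.8, 67.0, 56.1 and 55.8 with TSP1. Here TSP1 replicate 1 was not the lowest library, and TSP1 replicate 2 came within 2 CPM of PBS replicate 2. The log2 fold change was -0.31 ± 0.08 (SE), with an adjusted p of 0.228 in edgeR's quasi-likelihood test.

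**Figure D3:**
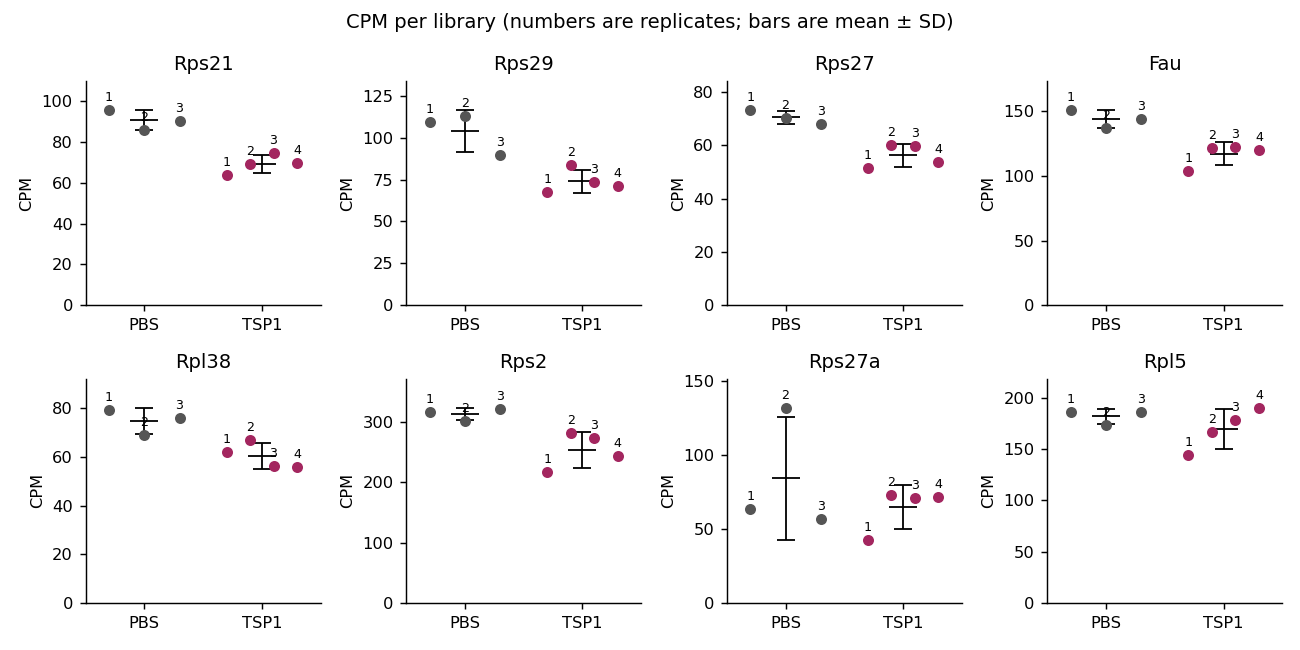
CPM (vertical axes, from 0) of 8 ribosomal protein genes in each library, with the replicate number over each point and bars of mean ± SD for PBS (n = 3, grey) and TSP1 (n = 4, red). In Rps21, Rps29, Rps27, Fau, Rpl38 and Rps2 the TSP1 libraries all lie below the PBS libraries. In Rps27a, PBS replicate 2 lies far above the others at 131.6 CPM, and in Rpl5 the groups overlap.

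Other members among the 10 of smallest p were Rps20, Rpl18, Rps2 and Rps28, with log2 fold changes of -0.26 to -0.31, adjusted p of 0.256 to 0.279 in edgeR's quasi-likelihood test and no overlap of the groups in any. Rps2 lies at the mRNA entry of the small subunit and Rps20 in its head. Rps2 stood at 316.4, 301.4 and 321.2 CPM with PBS and at 216.6, 281.3, 274.1 and 242.9 with TSP1. Rpl18 stood at 103.6, 92.7 and 99.5 CPM with PBS and at 67.4, 83.8, 85.0 and 82.8 with TSP1. In both, TSP1 replicate 1 was the lowest library, and the other 3 TSP1 libraries were also below all of PBS.

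The highest levels per kilobase of transcript in PBS belonged to Rplp1, Rpl41 and Rps15, at 857, 604 and 546 CPM per kilobase against a member median of 174. Rplp1, an acidic protein of the stalk that recruits elongation factors, stood at 443.0, 396.7 and 443.8 CPM with PBS and 266.1, 382.5, 375.6 and 363.3 with TSP1. Its groups were apart, with a log2 fold change of -0.30 ± 0.11 (SE) and an adjusted p of 0.438 in edgeR's quasi-likelihood test, and the value was -0.19 without TSP1 replicate 1. The other stalk members were Rplp0, the anchor of the stalk, at -0.19 ± 0.10 (SE), and Rplp2 at -0.17 ± 0.09 (SE), both with overlapping groups, and they were at -0.11 and -0.09 without TSP1 replicate 1. Rps15 was at -0.31 ± 0.09 (SE) with the groups apart.

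Rpl41 has the shortest coding sequence of the members, though not the shortest transcript, and its coding sequence is printed whole because its length is part of the comparison with length below. It lies on chr10:128548114-128549305, minus strand, in GENCODE M21 (GRCm38), with capitals on the start and stop codons.
Rpl41: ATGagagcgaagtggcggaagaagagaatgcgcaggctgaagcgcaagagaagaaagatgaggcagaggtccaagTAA
Its CPM were 345.6, 297.3 and 311.9 with PBS and 204.2, 268.8, 299.96 and 266.8 with TSP1, so that TSP1 replicate 3 lay above PBS replicate 2. The log2 fold change was -0.29 ± 0.11 (SE), with an adjusted p of 0.449 in edgeR's quasi-likelihood test, and it was -0.19 without TSP1 replicate 1.

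Rpl5 and Rpl11 bind 5S ribosomal RNA and, when not built into ribosomes, bind Mdm2 and stabilise p53. Rpl5 stood at 186.1, 173.6 and 186.3 CPM with PBS and 144.2, 166.8, 178.6 and 190.1 with TSP1. TSP1 replicate 4 was the highest library of all 7, and the log2 fold change was -0.10 ± 0.08 (SE), and -0.03 without TSP1 replicate 1. Rpl11 was at -0.22 ± 0.09 (SE), with overlapping groups. Rpsa, the laminin-receptor protein of the small subunit, was at -0.25 ± 0.09 (SE) with groups apart.

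Members close to 0 were also present. Rpl26, which lies near the exit of the nascent peptide, stood at 194.5, 172.5 and 179.5 CPM with PBS and 148.1, 168.9, 207.7 and 186.3 with TSP1. The TSP1 libraries lay on both sides of the PBS libraries, and the log2 fold change of -0.04 ± 0.10 (SE) turned to 0.04 without TSP1 replicate 1. Rpl7, Rpl7a and Rps6, the small subunit protein phosphorylated by the S6 kinases, were at -0.05, -0.05 and -0.08. Without TSP1 replicate 1, Rpl7 and Rpl7a turned to 0.0083 and 0.0095, Rps14 turned from -0.08 to 0.0077 and Rps6 was at -0.0031.

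Rps27a, a ubiquitin fused to a small subunit protein, had the widest spread of the well counted members. Its CPM were 63.5, 131.6 and 56.8 with PBS and 42.2, 73.1, 71.1 and 71.7 with TSP1. PBS replicate 2 held 2225 counts of this gene, whereas the other libraries held 640 to 1359. The log2 fold change of -0.37 ± 0.38 (SE) became 0.11 without that library, so its sign rests on PBS replicate 2. Without TSP1 replicate 1 it was -0.22. Rack1, a scaffold protein on the small subunit whose symbol is outside the rule, was at -0.16 ± 0.07 (SE), with no overlap of the groups, and at -0.11 without TSP1 replicate 1.

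The paralogs were lower in level than the genes they resemble. Rpl22l1 was at 20.4 CPM in PBS and a log2 fold change of -0.23 ± 0.09 (SE) with groups apart. Rpl36al, Rpl7l1 and Rps27l were at -0.11, -0.08 and -0.24, with overlapping groups. Rps4l, annotated as a transcribed processed pseudogene and so outside the rule, was at 0.14 ± 0.15 (SE). Rps27rt, a single-exon copy of Rps27 on chromosome 9, was at 0.00 ± 0.13 (SE). Without TSP1 replicate 1, Rps27l was at -0.15, Rpl7l1 at -0.02, Rps4l at 0.23 and Rps27rt at 0.07. The coding sequences of Rps27 and Rps27rt are the same over 255 bases with the stop codon (0 differences), so counts could be split between them only by bases outside it. Rps27l differs from Rps27 at 61 of 255 bases (76.1% identity). Both coding sequences are printed to show how far apart those mRNAs are, from GENCODE M21 (GRCm38), with capitals at the differing bases. Rps27 is on the minus strand of chromosome 3 and Rps27l on the plus strand of chr9:66946086-66949516.
Rps27: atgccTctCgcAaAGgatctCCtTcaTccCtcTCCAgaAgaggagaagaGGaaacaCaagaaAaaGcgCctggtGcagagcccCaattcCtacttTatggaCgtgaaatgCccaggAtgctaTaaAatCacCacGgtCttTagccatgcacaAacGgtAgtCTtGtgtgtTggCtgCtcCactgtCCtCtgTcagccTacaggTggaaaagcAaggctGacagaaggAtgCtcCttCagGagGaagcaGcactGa
Rps27l: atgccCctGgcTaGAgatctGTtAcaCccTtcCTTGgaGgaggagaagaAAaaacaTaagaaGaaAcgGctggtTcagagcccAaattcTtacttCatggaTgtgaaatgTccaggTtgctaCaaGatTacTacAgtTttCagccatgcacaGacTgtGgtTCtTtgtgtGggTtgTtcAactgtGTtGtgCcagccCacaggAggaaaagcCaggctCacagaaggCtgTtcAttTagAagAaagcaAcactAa

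Ribosomal protein genes have many processed copies in the genome, and the sources used here do not say how reads that fit several places were counted. A copy of at least 95% identity over at least 80% of the coding sequence was annotated for 78 members and had counts in the table for 74. Copies held more than 10% of the counts of member and copies together for 17 members, among them Rpl38 (12.4%), Rps27 (13.9%), Rps10 (32.3%) and Rpl21 (56.9%). Values of these 17 are uncertain to that extent. Rpl24 had 77 counts over all 7 libraries against 108 in its copies, so its log2 fold change of 0.15 ± 0.51 (SE), or 0.27 without TSP1 replicate 1, carries little information, and it also overlaps the annotated gene Gm28037. Of 105 tested copies, 89 lay below 0, with a median of -0.25 and 17 lower at an unadjusted p under 0.05, beside 5.44% of all genes. Copies and members may hold each other's reads, so their shared direction cannot show how reads were divided between them.

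Shorter genes tended to lie lower with TSP1, among members and among other genes alike. Other protein-coding genes with transcripts of 4000 bases and over had a median above 0, at 0.05. Over 83 members the Spearman correlation of the log2 fold change with transcript length was 0.26 and with coding length 0.34, and with GC content it was -0.33. Over 14329 other protein-coding genes it was 0.25, 0.26 and -0.21. Genes in these correlations share the same 7 libraries. Of the 8 shortest members by coding length, Rpl41, Rpl39, Rps29, Rps28, Rpl38, Rps21 and Rps27 lay below 0, from -0.19 to -0.49, and Rps27rt was at 0.00. The longest members, Rpl4, which lines the exit tunnel of the large subunit, and Rpl3, which reaches toward the peptidyl transferase centre, were at -0.13 and -0.10, and Rpl3 was at -0.03 without TSP1 replicate 1.

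At matched length the members lay further below 0 than other protein-coding genes. With transcripts under 600 bases the median was -0.23 over 25 members and -0.11 over 178 other genes. From 600 to 1000 bases it was -0.19 over 40 members and -0.08 over 808 others, and from 1000 to 1500 bases -0.16 over 11 members and -0.04 over 1478 others. Among all 986 other protein-coding genes with transcripts under 1000 bases, 703 (71.3%) lay below 0, with a median of -0.09. That median was -0.05 without TSP1 replicate 1. Rps20 and Rps15a have long annotated transcripts (3706 and 5130 bases) and stood at -0.29 and -0.08, Rps15a at -0.0074 without TSP1 replicate 1. These are medians of chosen lists and no test of the difference was made.

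**Figure D4:**
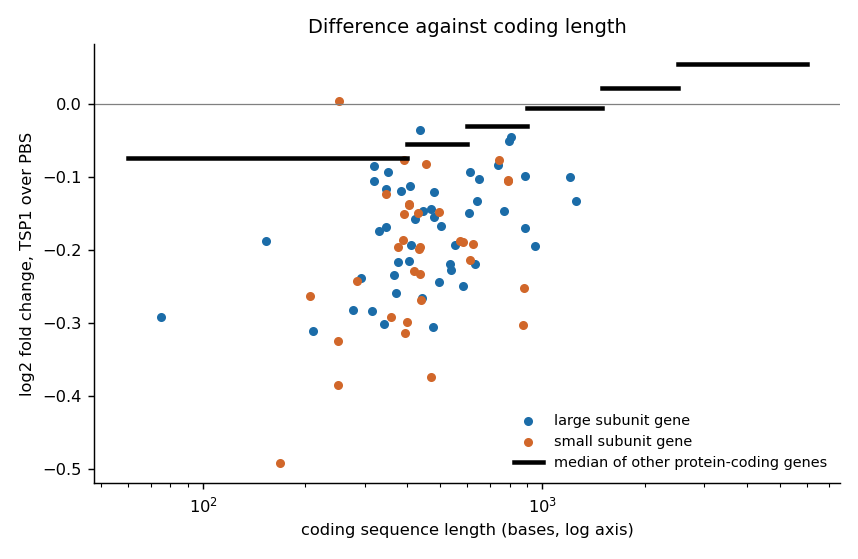
Log2 fold change of TSP1 over PBS (vertical axis) against coding sequence length in bases (horizontal log axis) for the tested ribosomal protein genes, blue for large and orange for small subunit, Rpl24 left out. Black bars are medians of other protein-coding genes in bins of coding length, from -0.07 under 400 bases to 0.06 from 2500 bases on. Most members lie below the bar at their length.

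Among other genes, the libraries at the extremes of the trend with length were those that stood apart in the members' mean. Over other protein-coding genes the Spearman correlation of centred log2 CPM with transcript length was 0.25 in TSP1 replicate 1 and -0.30 in PBS replicate 1, the extremes of the 7 libraries, with -0.14 in PBS replicate 3 and -0.02 to 0.06 in the rest. In TSP1 replicate 1 other genes with transcripts under 600 bases had a median of -0.13, and in PBS replicate 1 of 0.15. Within the members the same correlation was 0.10 in TSP1 replicate 1 and -0.29 in PBS replicate 1, and it was highest in TSP1 replicate 4, at 0.38. The members' correlation of log2 fold change with transcript length was 0.26 when TSP1 replicate 1 was left out, 0.18 for TSP1 replicate 4 and 0.19 for PBS replicate 1, and it was 0.20 with replicate 1 of each group left out. When each library's trend with length and GC content was removed, the members' median was -0.13, 79 of 83 lay below 0 and 26 were lower and 0 higher at an unadjusted p under 0.05, beside 5.03% and 3.5% of all genes. The correlation with transcript length was then 0.09 and that with coding length 0.31. Rps21, Rps29, Rps27 and Fau stood at -0.33, -0.43, -0.28 and -0.20 in that fit.

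**Figure D5:**
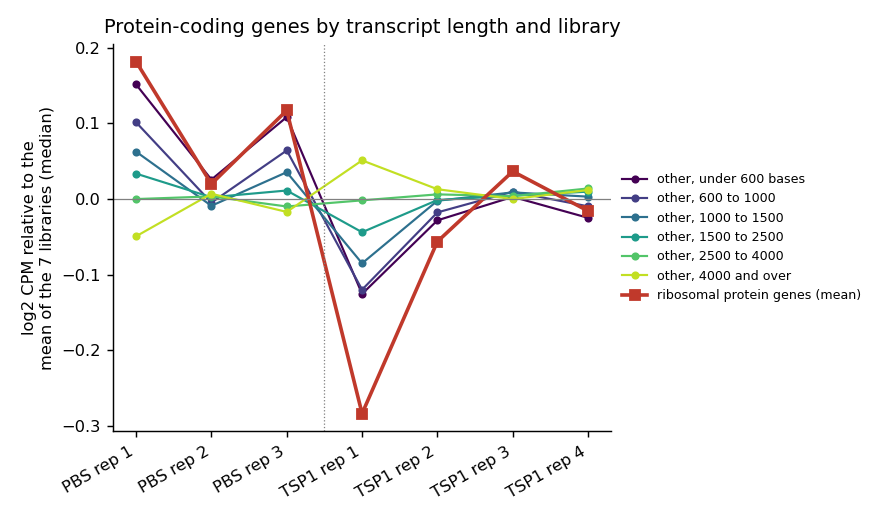
Centred log2 CPM (vertical axis) in each library (horizontal axis), as the median of other protein-coding genes in bins of transcript length (circles, dark for short) and as the mean of the ribosomal protein genes (red squares). Lines only join the points of a bin. The shortest other genes run from -0.13 in TSP1 replicate 1 to 0.15 in PBS replicate 1, and the ribosomal protein genes from -0.28 to 0.18.

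Genes that work beside the ribosomal proteins were compared from lists. Of 23 other genes with TOP mRNAs, 15 lay below 0, with a median of -0.05. At an unadjusted p under 0.05, 2 were lower (8.70%), Rack1 among them, and 0 higher, beside 5.44% and 4.21% of all genes. The median of these TOP genes turned to 0.0016 without TSP1 replicate 1, with 11 of 23 below 0. Of 37 initiation factors, 19 lay below 0, with a median of 0.00 (0.02 without TSP1 replicate 1) and 0 past that p in either direction. The smallest p was that of Eif3f, a subunit of the factor that loads the small subunit, at -0.15, and at -0.09 without TSP1 replicate 1. Of 11 elongation and release factors, 8 lay below 0, with a median of -0.02 and 0 past that p. Eef1g, part of the complex that recharges elongation factor 1A, was at -0.12.

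In the main fit, lists of factors that make ribosomes had medians above 0, but 2 of these turned in sign without TSP1 replicate 1. Of 40 biogenesis factors, 12 lay below 0, with a median of 0.03 and 0 past an unadjusted p of 0.05. Utp20, part of the small subunit processome, was at 0.19. Of 15 tested genes of the RNA polymerase I machinery, 7 lay below 0, with a median of 0.03 and 1 lower (Cd3eap, a polymerase I subunit, at -0.20). Of 22 genes of mTORC1 signalling to the ribosome, 10 lay below 0, with a median of 0.02 and 1 lower (Akt1s1, an inhibitory partner of mTORC1, at -0.18). These single lower genes were 6.67% of the polymerase I genes and 4.55% of the mTORC1 genes, beside 5.44% of all genes. Without TSP1 replicate 1 the median of the biogenesis factors was 0.05, with 10 of 40 below 0. That of the polymerase I genes was then -0.01 (8 of 15 below 0) and that of the mTORC1 genes -0.02 (12 of 22 below 0). The fit with length and GC offsets gave medians of 0.04 for biogenesis factors and 0.0063 for polymerase I genes. In that fit the mTORC1 median turned to -0.00565, with 13 of 22 below 0.

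Other genes linked to ribosomes were also compared. Of 14 tested snoRNA host genes, 10 lay below 0, with a median of -0.11 and 1 lower, Zfas1, at -0.44 ± 0.11 (SE) and an adjusted p of 0.242 in edgeR's quasi-likelihood test. Of 77 proteins of the mitochondrial ribosome, 51 lay below 0, with a median of -0.05 (-0.03 without TSP1 replicate 1), 7 lower and 0 higher. The smallest p there was that of Mrpl23, at -0.31. These shares stand beside 5.44% of all genes lower and 4.21% higher.

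Most markers of glia and vessels also had fitted values below 0, to an extent that varied with the libraries. Of 16 microglial markers, 15 lay below 0, with a median of -0.26 and 10 lower at an unadjusted p under 0.05, beside 5.44% of all genes. Their mean was -0.24, -0.00, 0.01 and -0.29 in TSP1 replicates 1 to 4 and 0.26, 0.21 and 0.05 in PBS replicates 1 to 3. Of 16 astrocyte markers, 15 lay below 0, with a median of -0.17 and 5 lower, and means of -0.25, 0.05, 0.04 and -0.19 with TSP1 and 0.10, 0.08 and 0.17 with PBS. The astrocyte median was -0.11 without TSP1 replicate 1. Of 14 endothelial markers, 13 lay below 0, with a median of -0.18 and 5 lower, and their mean was 0.04 in TSP1 replicate 1 and -0.32 in TSP1 replicate 4. The endothelial median was -0.10 without TSP1 replicate 4. Of 15 myelin markers, 12 lay below 0, with a median of -0.14 and 1 lower. That median was 0.03 without TSP1 replicate 1, and without TSP1 replicate 4 it was -0.53, with all 15 lower. Of 12 markers of oligodendrocyte precursors, 9 lay below 0, with a median of -0.17 and 4 lower, and it was -0.25 with 8 lower without TSP1 replicate 4. Interneuron markers had a median of -0.10, with 7 of 12 below 0, 4 lower and 0 higher. Excitatory neuron markers had a median of -0.03 (-0.06 without TSP1 replicate 1), with 8 of 12 below 0, 0 lower and 1 higher. TSP1 replicate 1 was thus low in ribosomal protein, microglial and astrocyte genes. It was also low in myelin (-0.51), oligodendrocyte precursor (-0.20) and interneuron (-0.22) markers. TSP1 replicate 4 was low in microglial, astrocyte and endothelial markers and high in myelin markers, while its ribosomal protein mean was -0.02. The part of these cell types in the result was not tested.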

How the data were processed

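Per the labels' protocols, libraries were made from total RNA with a SMARTer mRNA kit. The deposited values are raw counts, since they are whole numbers with unequal totals. The submitters' processing notes name GRCm38 and mm10. The sources used here do not give the aligner, the counter, its annotation or its use of strand, so overlapping and antisense genes cannot be told apart. The number that opens a sample's description tied it to its column, and 0 columns were of other samples.

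Identifiers were matched to GENCODE M21 (25375 of 25467). Transcript length is the median over basic protein-coding transcripts. Genes were tested in edgeR 4.0.16 (R 4.3.3) over all 7 libraries: filterByExpr, TMM, a robust quasi-likelihood fit of group (glmQLFit, glmQLFTest), two-sided, Benjamini-Hochberg adjusted p under 0.05. It was tested on simulated data. CPM are TMM-scaled, and SE is the absolute log2 fold change divided by the root of F, with a median of 0.11 over all genes. P-values set the difference between the groups against the spread between libraries within groups. Centred values use log2 CPM with a prior count of 2. Alternatives were RLE size factors, TMM without the members, DESeq2 1.42.0, the edgeR exact test, limma 3.58.1 voom, other filters (none, 5 CPM in 3 libraries), a block for replicate number, offsets for length and GC content (splines of 4 degrees of freedom) and leaving out libraries.

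Members, lists and tests were chosen with earlier results of these data known, and no p was computed over a list. The text names the 10 members of smallest p, the 3 of highest fold change, the 3 of highest CPM per kilobase in PBS, Rpl5, Rpl11, the stalk genes, Rpsa, Rps27a, Fau, Rack1, the paralogs and each list's gene of smallest p. Some genes that the rule takes are not reported here. Others named were chosen after their values were seen.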

Additional observations from a re-analysis of the deposited data

Results flagged for a closer look

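The 40 values checked in the TSP1 group were those of 35 named genes, class means, the difference between subunits and the share of counts. Dixon's test at 95% flags a library when gap over range is above 0.829 for 4 libraries, about 1 in 20 by chance alone. In 6 values, all of single genes, a library lay further from the rest than that. In each it was TSP1 replicate 1, which was the lowest. Its values were 103.7 CPM for Fau, 67.4 CPM for Rpl18, 266.1 CPM for Rplp1, 154.4 CPM for Rplp0, 42.2 CPM for Rps27a and 183.6 CPM for Eef1g. The genes share the library, so these are not 6 independent observations. Without that library the log2 fold changes of Fau, Rpl18, Rplp1 and Rplp0 were -0.24, -0.23, -0.19 and -0.11.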

How the results depend on the processing

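The members' median, the per-library mean, the share of counts, the difference between subunits and the correlation with length kept their direction under every alternative run. The median ranged from -0.12 to -0.23 with a library left out. Genes past the adjusted threshold numbered 0 in the main fit, 88 with DESeq2, 104 with the exact test, 19 without a low-count filter, 0 to 9 with a library left out and 23 without TSP1 replicate 1 and PBS replicate 1. Members lower at an unadjusted p under 0.05 numbered 37, 18 to 46 with a library left out and 15 without both. The shares of all genes that were lower were 5.44%, 3.7% to 5.88% and 5.13%. Among the 35 genes tried under every alternative, log2 fold changes turned in sign for 5. With single libraries left out, Rpl26 (-0.04) ranged from -0.12 to 0.0435, Rps27rt (0.00) from -0.092 to 0.083, Rpl24 (0.15) from -0.32 to 0.89 and Rps27a (-0.37) from -0.59 to 0.11. With TSP1 replicate 1 and PBS replicate 1 both left out, Rpl26 was at 0.10, Rpl24 at -0.20 and Rpl7l1 (-0.08) at 0.060. Rpl26 was at 0.034 with length and GC offsets, Rps27rt at -0.00336 with voom and Rpl24 at -0.033 with the replicate block. The cause was not tested. Same-numbered libraries correlated at -0.26, -0.03 and 0.01 in their deviations from the group means. No library with a same-numbered library in the other group correlated best with that library. The sources used here do not say whether the numbers pair mice, which correlations of so few libraries cannot settle. With the replicate block the median was -0.20, 34 members were lower (beside 4.78% of all genes) and the correlation with length was 0.17. The block gives TSP1 replicate 4 no weight. Over all members, those below 0 numbered 81 of 83, 77 of 83 without TSP1 replicate 1 and 65 of 84 without both. At this depth the median SE of a gene is 0.11.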
